A study of Mus musculus with 2 samples.

Results

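The retinoic acid pathway was examined through 9 genes in mouse embryos at E8.5 (embryonic day 8.5): Rbp4, Rdh10, Aldh1a2, Crabp1, Crabp2, Rara, Rarb, Rarg and Cyp26a1. The genes were taken by name, through the gene annotation of the array's probes, and all 9 of the 18069 genes with a probe of their own were found, with 10 probes in all. The wild-type group was 1 pool of 42 wild-type embryos and the mDom-/- group was 1 pool of 45 embryos homozygous for a mutation of mDom, both of embryo proper from matched litters. mDom (mDomino, p400) is the submitters' name for Ep400, which encodes the ATPase of the TIP60/p400 chromatin-remodelling complex. The labels name no strain, treatment or kind of mutation. Total RNA of each pool was hybridised to 1 oligonucleotide array of a 1-colour system, so the design asks which transcripts differ between these pools. No value below has a replicate error, and no difference has a test or a p-value.

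Retinoic acid is a small signal made from vitamin A. Retinol travels in blood on the carrier Rbp4, is oxidised to retinal by Rdh10 and then to retinoic acid by Aldh1a2, which in the embryo of this stage is made in somites and lateral mesoderm. Crabp1 and Crabp2 bind retinoic acid in the cytoplasm, the receptors Rara, Rarb and Rarg bind it in the nucleus as partners of Rxr receptors, and Cyp26a1 breaks it down at the ends of the body axis. The signal is known for its part in patterning the hindbrain and in the formation of somites and of the heart. Rarb and Cyp26a1 are themselves textbook targets of the receptors, so their transcripts are often read as a measure of the signal.

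The DNA element that the receptors bind is shown first, because both of these genes carry it and the array measured their transcripts. The DR5 motif is a direct repeat of a pair of 6-base half-sites with 5 bases between them, each half-site read as A or G, then G, then G or T, then TCA. It was searched on both strands in windows from 250 bases before to 50 bases after gene starts (RefSeq, GRCm38.p6). It was found in 32 of 32851 windows (0.0974%). Windows were held for 7 of the 9 genes (12 windows), and Rarb and Cyp26a1 were the genes among these 7 with a match. The 150 bases before each start are printed 5′ to 3′ on the strand of the gene, with the DR5 match in capitals. The Rarb stretch is chr14:16575477-16575626 on the minus strand, and the Cyp26a1 stretch is chr19:37697658-37697807 on the plus strand.
Rarb: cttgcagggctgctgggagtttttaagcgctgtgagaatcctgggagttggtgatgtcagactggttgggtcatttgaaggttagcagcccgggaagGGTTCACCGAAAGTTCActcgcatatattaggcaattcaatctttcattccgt
Cyp26a1: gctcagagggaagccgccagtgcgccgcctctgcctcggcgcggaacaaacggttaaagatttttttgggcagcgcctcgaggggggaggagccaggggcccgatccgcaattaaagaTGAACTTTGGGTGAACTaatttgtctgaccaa
The Rarb match lay 53 to 37 bases before the start on the strand of the gene. The Cyp26a1 match lay 32 to 16 bases before the start on the opposite strand. Read as direct repeats, with the half-sites in capitals, they were alike at 15 of 17 bases.
Rarb: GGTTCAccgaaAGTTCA
Cyp26a1: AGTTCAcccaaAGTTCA
A match describes these letters and does not show that a receptor was bound there in these embryos. No DR1 or DR2 motif, with the same half-sites 1 or 2 bases apart, was found in the 12 windows. Of all windows, 0.222% and 0.268% held them. At shares this low, 12 windows would mostly hold none, so their absence does not set these genes apart.

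The signals of the pathway genes were close in both pools. Intensities are given in multiples of the array's median signal, and the log2 ratio is mDom-/- minus wild-type. A common floor of 0.541 array medians marked dim signals, and 8 of the 9 genes had a probe above it on both arrays. None of these 8 was 2-fold apart, where 1.77% of the 13136 compared genes were, and none was 1.5-fold apart, where 8.43% were. At shares this low, 8 genes would often hold none, so these counts do not set the pathway apart. Of the 8 genes, 4 had a ratio above 0 and 4 below, their median log2 ratio was -0.01 and that of all compared genes was 0.00 after rounding. Ratios of 7 of the 8 lay within 0.25 of 0 on the log2 scale, as did 63.9% of all compared genes. That share includes dim genes, whose ratios spread more. The robust SD of log2 ratios was 0.35 in the dimmest class of brightness and 0.19 in the brightest. All 8 genes were brighter than the dimmest class. Whether the 8 as a set were closer than genes of like brightness was not tested. The value of 0.25 is also the SD of log2 ratios between probes of the same gene, taken from 1301 genes with 2 probes measured on both arrays, which covers probe and hybridisation error and not the spread between pools. Because pools of whole embryos were measured, fewer cells of a type and less RNA per cell cannot be told apart.

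**Figure D1:**
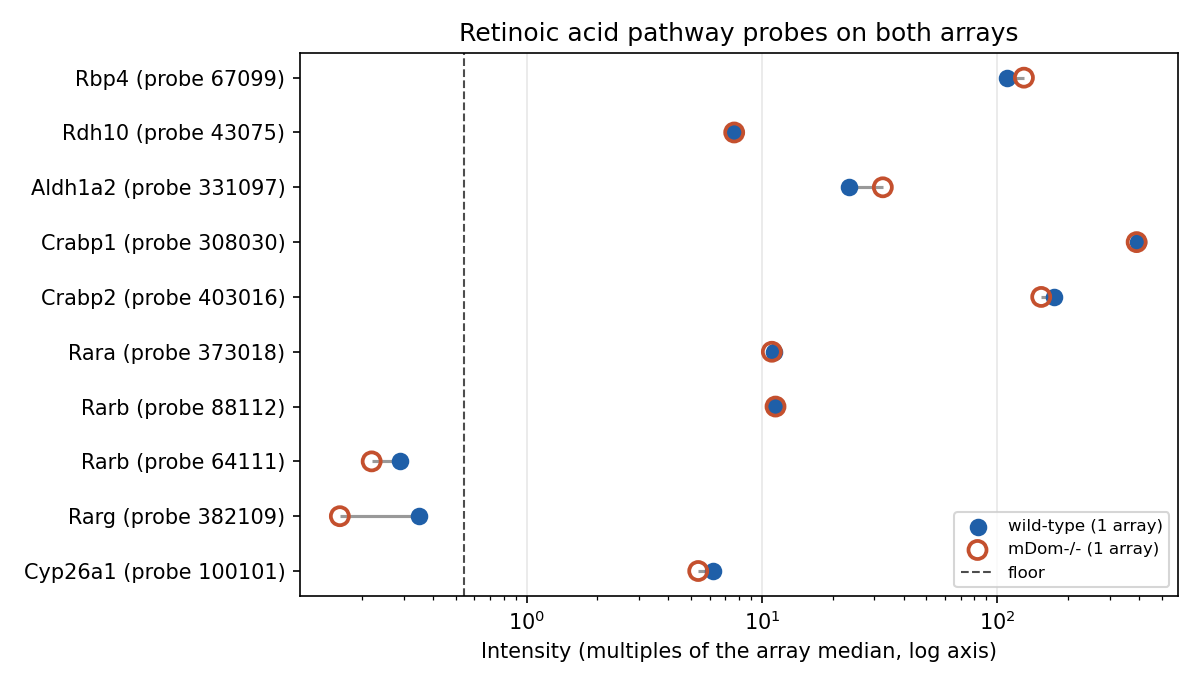
Intensity of each of the 10 probes of the 9 genes on the wild-type array (filled) and the mDom-/- array (open), in multiples of the array median on a log axis, with the floor as a dashed line. The symbols overlap or nearly so for 7 probes above the floor and are apart for Aldh1a2, and the probe of Rarg and 1 of the 2 probes of Rarb lie below the floor on both arrays. Probes differ in how well they bind, so heights of different probes are not to be compared.

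Checks on the samples were limited. The 2 probes of Ep400 read 0.215 and 0.470 in wild-type and -0.029 and 0.071 in the mDom-/- pool, all below the floor, so the disrupted gene does not check the labels. Markers of the labelled tissue gave signal: probes of 12 of 14 somite and presomitic mesoderm genes, all 7 probed hindbrain genes and 7 of 8 lateral plate and heart genes were above the floor, with Lfng, Ripply2 and Hand2 below it on both arrays. Genes of tissues outside the embryo proper, which is what the labels name, gave signal too: 11 of 12 visceral endoderm and yolk sac genes and 3 of 4 probed trophoblast and decidua genes were above the floor. Of all 18069 genes with a probe of their own, 13136 were above the floor on at least 1 array and 11926 on both. Such counts alone therefore do not tell which tissues were in the pools.

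Supply of retinol was represented by Rbp4, the carrier of retinol in blood, which the visceral endoderm and later the liver secrete. Its probe read 109.8 in the wild-type pool and 129.8 in that of mDom-/- embryos, a log2 ratio of 0.24 (1.18-fold higher). The mDom-/- pool was the higher of the pair, with scaling to the median by slightly less than the SD of 0.25 between probes of 1 gene. Among the brightest 25% of genes, 23.0% were at least as far apart in either direction. Scaling that adjusts for brightness lowered the ratio, to 0.13 with loess. Scaling to the 75th percentile gave 0.26, slightly above that SD. Ttr, which encodes the protein that holds Rbp4 in the circulation, read 166.5 and 251, 1.51-fold higher.

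Beside Rbp4 and Ttr, other genes of visceral endoderm and yolk sac went both ways. On a list of 12 such genes that holds Ttr, 11 were compared, 6 above 0 and 5 below, with a median log2 ratio of 0.43 and none 2-fold apart. Their summed signal was 649 array medians in the wild-type and 857 in the mDom-/- pool. The lipid carrier gene Apoc2 was highest at 0.92 and Lrp2, an uptake receptor gene, lowest at -0.74. Apoc2 read 128 in the wild-type and 242 in the mDom-/- pool, and with Ttr it made up much of the difference in summed signal. Amn was below the floor on both arrays. The 10 gut endoderm genes had a median of 0.30 and sums of 218 and 382, with 8 above 0 and 2 below. Spink1 and Pyy were at least 2-fold higher, where 0.845% of compared genes were. Spink1 alone read 144 in the wild-type and 289 in the mDom-/- pool and made up most of the difference in these sums. The labels name embryo proper, and how far yolk sac was removed is not stated in them. The part of these tissues in the Rbp4 value was not tested.

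Synthesis of retinoic acid was represented by both enzymes that the embryo of this stage is known to rely on. Rdh10, which oxidises retinol to retinal, read 7.59 in the wild-type pool and 7.62 in that of mDom-/- embryos, a log2 ratio of 0.01. The signals were within 1% of each other (0.411% higher in the mDom-/- pool). Aldh1a2, which makes retinoic acid from retinal, read 23.4 and 32.6, a log2 ratio of 0.48 (1.40-fold higher). It was the member farthest from 0 and, with scaling to the median, the one member beyond the SD of 0.25 between probes. It was short of 2-fold and measured by 1 probe. In the brightest 25% of genes, to which it belongs, 3.66% were at least as far apart in either direction, and 6.47% of all compared genes had a ratio as high. Its ratio stayed between 0.47 and 0.50 under all 8 alternative scalings, floors and probe rules. Only the scalings could change it, since its 1 probe was above every floor on both arrays.

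Markers of the mesoderm in which Aldh1a2 is known lay on both sides of 0. The 12 compared somite and presomitic mesoderm genes had a median log2 ratio of 0.00 after rounding, with 5 above 0 and 7 below, and their summed signal was 135.4 and 139.4 array medians. Msgn1, a gene of presomitic mesoderm, was highest at 0.36. Meox2, a homeobox gene of the differentiating somite, was lowest at -0.97, and Meox1, its relative, had -0.09. The 7 compared lateral plate and heart genes lay between -0.17 (Foxf1, whose dimmer probe had -0.89) and 0.16 (Hand1), with sums of 45.1 and 46.2. Their part in the Aldh1a2 value was not tested.

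The cytoplasmic binding proteins were bright on both arrays. Crabp1, which is known for its expression in hindbrain and neural crest, read 395 in the wild-type pool and 391 in that of mDom-/- embryos, a log2 ratio of -0.01. Crabp2, which passes retinoic acid to the nuclear receptors, read 174 and 154, a log2 ratio of -0.18 (1.13-fold lower). With scaling to the median, both differences were under the SD between probes. The direction for Crabp1 was not fixed by these data, since it was 0.01 with scaling to the 75th percentile and -0.21 with loess. Crabp2 kept its direction, from -0.31 with loess to -0.16 with scaling to the 75th percentile. These probes belong to the brightest 25% of genes, whose own median log2 ratio was 0.03.

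Markers of the tissues in which Crabp1 is known stood on both sides of its value. The 7 compared hindbrain genes had a median log2 ratio of 0.10 and sums of 68.6 and 75.9, and Egr2, which marks rhombomeres, read 12.6 and 13.6. The 10 compared neural crest genes had a median of -0.28, with 8 below 0 and sums of 78.7 and 64.4. Sox10, a neural crest transcription factor gene, was 13.3 in the wild-type pool and 5.78 in that of mDom-/- embryos, while Crabp1 was nearly equal. Ngfr was below the floor on both arrays. Whether these tissues bear on the Crabp1 value was not tested.

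Of the nuclear receptors, Rara and Rarb read alike in both pools. Rara, the broadly expressed receptor, had 11.3 in the wild-type pool and 11.0 in that of mDom-/- embryos, a log2 ratio of -0.03. Rarb, the receptor that carries the DR5 match printed above, had 11.4 on both arrays (11.41 and 11.42), a log2 ratio of 0.00 after rounding. Of the genes in the same 25% class of brightness, 99.0% were at least as far apart as Rarb. Its second probe, designed on another sequence record, read 0.288 and 0.220, below the floor on both arrays, and gave no ratio. Rarg, the receptor of the tail region and mesoderm, read 0.348 and 0.161, also below the floor on both arrays. The data therefore gave no measure of Rarg, although it is a known gene of this stage. With no floor its log2 ratio would be -1.11, the one value past 2-fold among the members under any setting.

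Breakdown was represented by Cyp26a1, the enzyme that clears retinoic acid from the anterior and posterior ends of the embryo. It read 6.17 in the wild-type pool and 5.36 in that of mDom-/- embryos, a log2 ratio of -0.20 (1.15-fold lower). The difference was under the SD between probes, and 44.1% of the genes in its 25% class of brightness were at least as far apart. Across the scalings its log2 ratio lay between -0.20 and -0.17, and the floor and probe rules could not change it. Its paralogues Cyp26b1 and Cyp26c1 were on the wider list of pathway genes, but no probe of their own was matched to them, so they have no value here.

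**Figure D2:**
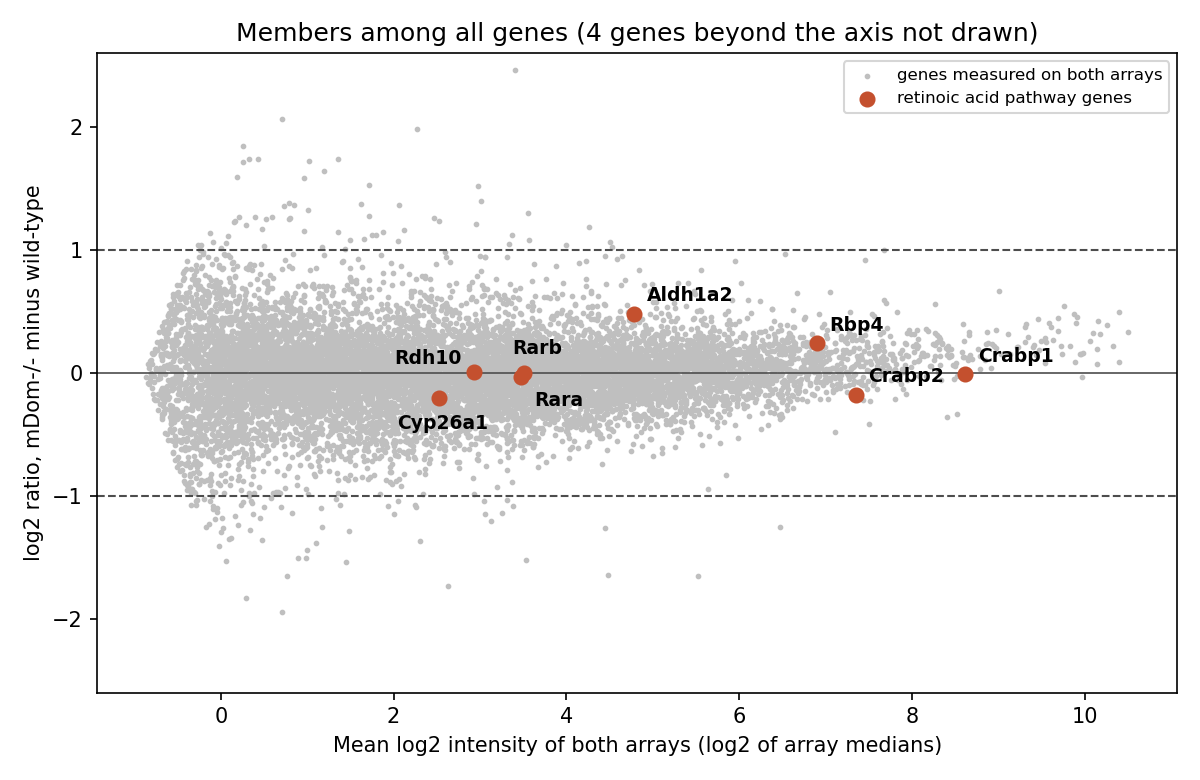
Log2 ratio (vertical) against mean log2 intensity of both arrays (horizontal) for the 11926 genes measured on both arrays in grey and the 8 measured members in colour; 4 genes beyond the vertical axis are not drawn and dashed lines mark 2-fold. Aldh1a2 at 0.48 is the member nearest the edge of the cloud, and Rdh10, Rara, Rarb and Crabp1 lie on the 0 line.

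**Figure D3:**
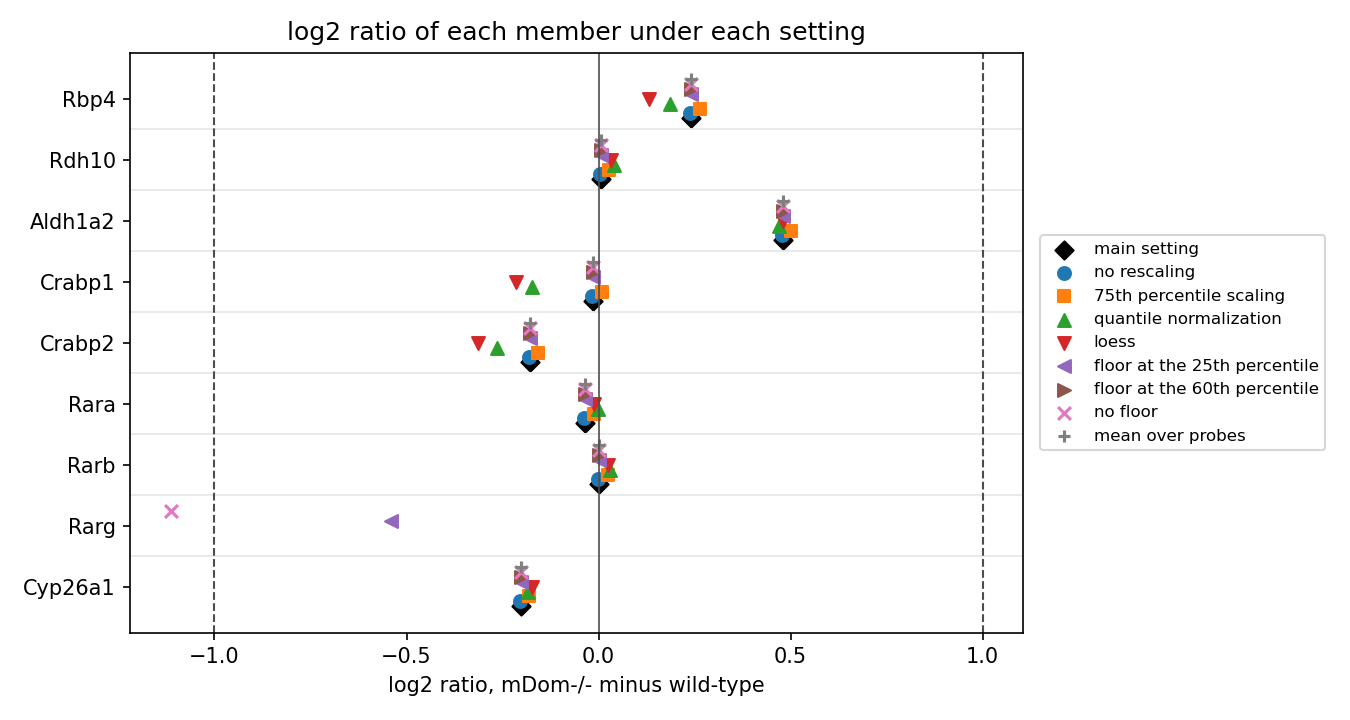
Log2 ratio of each member at the main setting (black diamond) and under 8 other scalings, floors or probe rules, with dashed lines at 2-fold. Aldh1a2 stays near 0.48, the bright Crabp1, Crabp2 and Rbp4 shift lower with quantile normalization and loess, and Rarg has a value at 2 settings only.

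The wider pathway was close to balanced as well. Of 44 further genes of retinoid uptake, oxidation, breakdown, reception and response, 38 had a probe of their own and 29 were compared, 14 above 0 and 15 below, with a median log2 ratio of -0.03. Below 0 were 51.7% of the 29, and 50.6% of all compared genes. One of the 29 was at least 2-fold higher and none at least 2-fold lower, where 0.845% and 0.929% of compared genes were. The one was Rbp7, a cellular retinol-binding protein gene, at 0.520 in wild-type, below the floor, and 1.11 in the mDom-/- pool (at least 2.05-fold higher). Adh1, an alcohol dehydrogenase that oxidises retinol, came nearest below the rule, with 1.10 and 0.558 (1.97-fold lower). Both of these signals were near the floor, where ratios spread most: their robust SD was 0.35 among the dimmest 25% of genes and 0.19 among the brightest 25%.

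Genes close to a member in role or family varied by role. Stra6, the membrane receptor for the carrier Rbp4, read 0.848 in the wild-type pool and 0.530 in that of mDom-/- embryos, just below the floor (at least 1.57-fold lower). Rdh5, Rdh11, Rdh12, Rdh13 and Rdh14, named as retinol dehydrogenases like Rdh10, were listed for oxidation of retinol or reduction of retinal. The direction that each enzyme takes was not examined. Their log2 ratios lay between -0.26 (Rdh11) and 0.18 (Rdh5), and Dhrs3, which turns retinal back to retinol, had -0.07. The dehydrogenases Aldh1a1 and Aldh1a7, relatives of Aldh1a2, had log2 ratios of -0.34 and -0.20 at signals of 0.811 and 1.78 in wild-type, while Aldh1a3 was below the floor on both arrays. Cyp1b1, which can also make retinoic acid, read 2.04 and 1.35 (1.51-fold lower, but -0.21 on the log2 scale with the floor at the 60th percentile). All 3 of these compared genes were thus below 0, as were 50.6% of all compared genes, against 0.48 for Aldh1a2. They belong to the dimmest 25% of genes. Of that class, 34.5% were at least as far apart as Aldh1a1, 57.2% as Aldh1a7 and 12.6% as Cyp1b1. The difference from Aldh1a2 was not tested.

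Fabp5, a fatty acid binding protein that can also carry retinoic acid, was lower by both of its probes. The brighter read 386 in the wild-type pool and 301 in that of mDom-/- embryos, a log2 ratio of -0.36, and the other 122.0 and 86.4, a log2 ratio of -0.50. The probes went the same way and were 1.28-fold and 1.41-fold lower. The partner receptors went both ways: Rxra had 0.29, Rxrg 0.31 and Rxrb -0.43. A second probe of Rxra read 0.086 in the wild-type pool, below the floor, and 0.548 in the mDom-/- pool, just above it. Its ratio of 0.02 is a lower bound and says little about the size of a difference. The 5 compared coregulator genes lay between -0.12 (Med1) and 0.33 (Crebbp), among them Ncoa3, a coactivator of the receptors, at 0.17 and Nrip1, a corepressor, at -0.05.

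**Figure D4:**
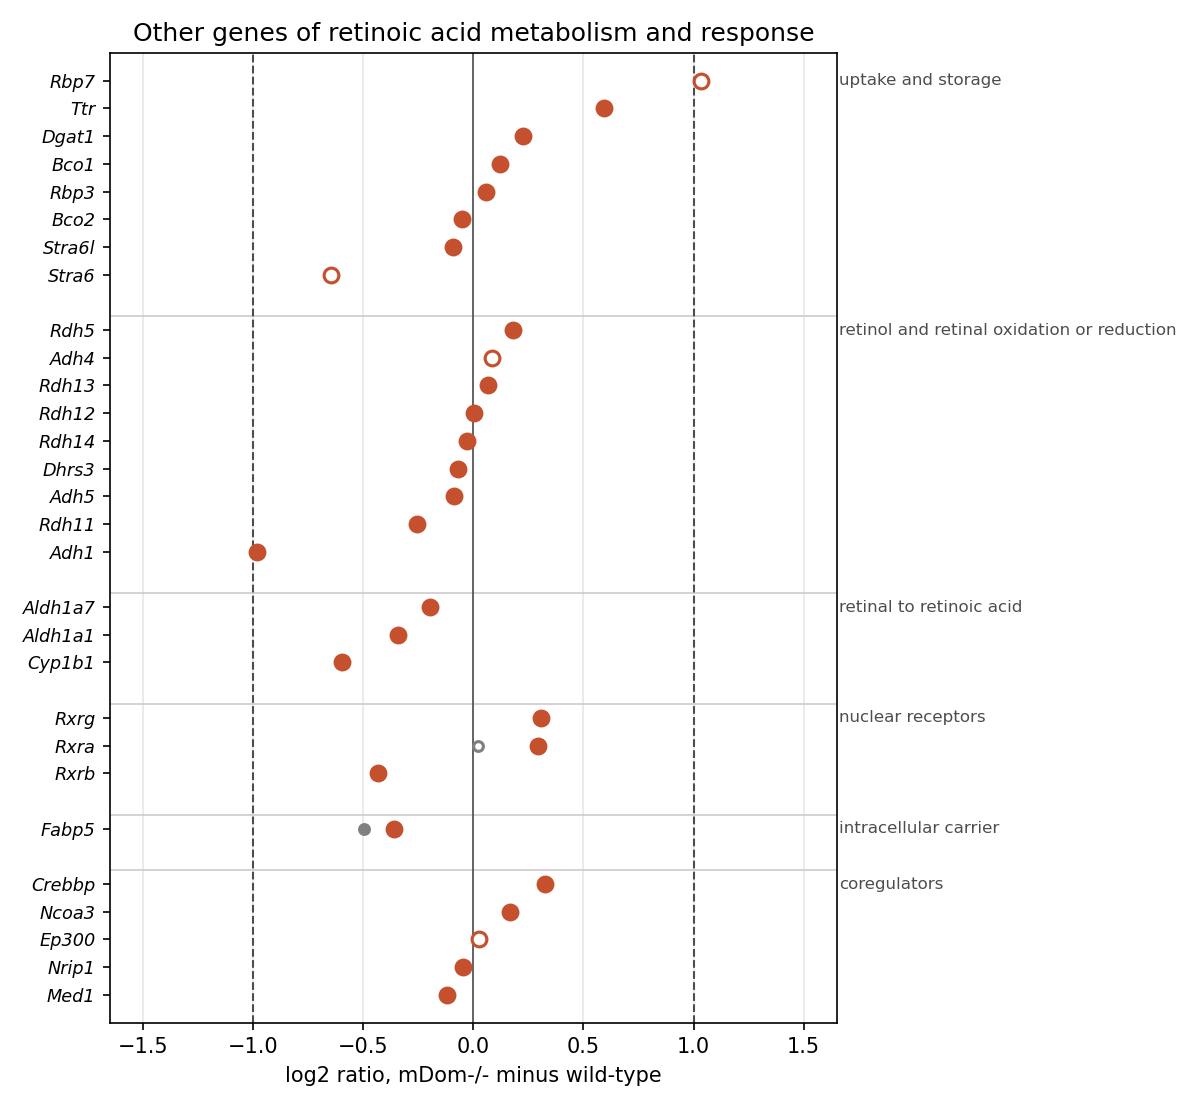
Log2 ratio of the 29 compared genes of the wider pathway, grouped by role, with dashed lines at 2-fold; large symbols are a gene's brightest probe, small grey ones its other compared probes, and open symbols are bounds with 1 array below the floor. Rbp7 lies past 2-fold at 1.03, Adh1 just short of it at -0.98, and 17 of the 29 genes (58.6%) are within 0.25 of 0, against 63.9% of all compared genes.

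Genes known to respond to retinoic acid in the embryo showed no common shift of 2-fold. Of 29 genes that the signal is known to raise, 18 were compared, 5 above 0 and 13 below, with a median log2 ratio of -0.13. Below 0 were 72.2% of them, and 50.6% of all compared genes. One was at least 2-fold lower, where 0.929% of compared genes were: Neurog2, a proneural gene, read 1.49 in wild-type and 0.421, below the floor, in the mDom-/- pool (at least 2.75-fold lower). None was 2-fold higher. Stra6 and Dhrs3 are on this list too. The list was chosen with results for some of its genes known, and its median is a description of these arrays.

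The Hox genes of this list, which the signal activates in hindbrain and upper trunk, stayed near 0. Hoxb1, the classic direct target, read 39.0 in the wild-type pool and 45.3 in that of mDom-/- embryos, a log2 ratio of 0.22. Hoxb3 had 0.32, and Hoxa2, Hoxa3, Hoxa4, Hoxb2 and Hoxb5 lay between -0.29 (Hoxa2) and -0.09 (Hoxa3). Hoxb4 was below the floor on both arrays. The Hox cofactor genes Meis1 and Meis2 had 0.24 and 0.00, and Meis2 was 0.02 with scaling to the 75th percentile. Thus the paralogues of 1 to 5 that were measured lay on both sides of 0 and within 1.25-fold.

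Larger ratios were found for Cdx1 and the Nr2f genes. Cdx1, a homeobox gene of the posterior body, read 35.4 in the wild-type pool and 63.2 in that of mDom-/- embryos, 1.79-fold higher, and its second probe 3.65 and 5.68, 1.56-fold higher. Both probes were above in the mDom-/- pool. Nr2f2, an orphan nuclear receptor gene (COUP-TFII), was lower by all 3 of its probes. The brightest read 43.1 and 27.4, the next 10.3 and 7.51, and the third 0.785 and 0.438, below the floor in the mDom-/- pool, with log2 ratios of -0.65, -0.46 and -0.54. Nr2f1 (COUP-TFI), its close relative, read 16.6 and 9.73, 1.70-fold lower, and its second probe was below the floor on both arrays. Pax6, a neural tube and eye gene, had -0.38.

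Neurog2 and Pax6 are themselves on the list of 7 neural tube markers. Of these 6 were compared, 5 of them below 0, with a median log2 ratio of -0.26 (-0.13 over those measured on both arrays) and sums of 50.9 in the wild-type and 41.1 in the mDom-/- pool. Of the 4 compared markers besides Neurog2 and Pax6, Hes5, a Notch target of neural progenitors, had -1.50, and the others lay near 0, with Sox3 at -0.13, Nes at -0.12 and Sox1 at 0.08, while Sox2 was below the floor on both arrays. The part of neural tissue in these values was not tested.

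Of 3 genes that retinoic acid is known to hold back, 1 was 2-fold apart. Wnt8a, a Wnt ligand of the posterior end, read 4.96 in the wild-type pool and 13.1 in that of mDom-/- embryos, 2.63-fold higher, where 0.845% of compared genes were as much as 2-fold higher. It rested on 1 probe, and its log2 ratio stayed between 1.40 and 1.43 under all alternatives. Only the scalings could change it, since that probe was above every floor on both arrays. Fgf8, the growth factor gene of the tail bud that the signal restrains, read 17.2 and 18.7, a log2 ratio of 0.12. Tbx1, a pharyngeal gene, read 1.25 and 0.808, a log2 ratio of -0.63. The tail bud list that stands beside Wnt8a and Cdx1 had 7 compared genes, 3 above 0 and 4 below, a median of -0.04 and sums of 52.3 and 54.3. Wnt3a was its highest at 0.30 and Wnt5b its lowest at -0.44.

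**Figure D5:**
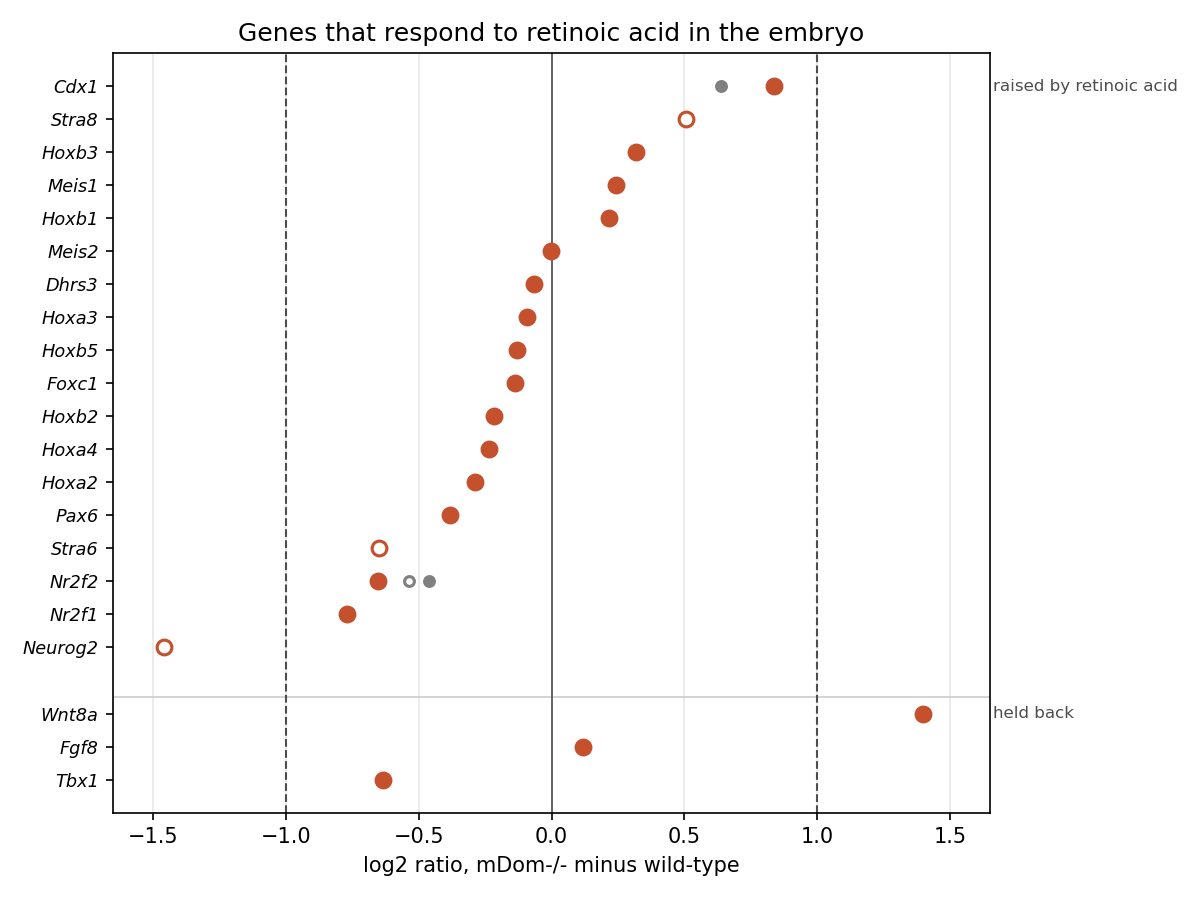
Log2 ratio of the 18 compared genes that retinoic acid is known to raise (above the grey line) and the 3 that it holds back (below it), with dashed lines at 2-fold; symbols as for the wider pathway. Neurog2 (a bound) and Wnt8a lie past 2-fold in opposite directions, and 13 of the upper 18 genes are below 0.

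Genes with the DR5 motif in a window were few on this array. Of 31 such genes, 11 had a probe of their own and 6 were compared, Rarb and Cyp26a1 among them. Beside these, Blvrb, a biliverdin reductase gene, had a log2 ratio of -0.01, Syndig1, a synapse gene, read 2.80 and 4.48 (0.68), and Prokr2, a receptor gene, was a bound at -0.12. The sixth was Hbb-y, the embryonic beta-like globin, with a match 133 to 117 bases before its start on the opposite strand and a signal of 133.8 in the wild-type and 5.11 in the mDom-/- pool. It was the one DR5 gene of the 6 past 2-fold, at a log2 ratio of -4.71, where 1.77% of compared genes were 2-fold apart. The 6 genes had a median of -0.07, and their ratios ran from -4.71 to 0.68.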

How the data were processed

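The deposited values were linear intensities, 1 column per array. Per the labels, the authors read the images with CodeLink System Software (version, background correction and scaling not given in the sources used here). Read as no value was the code -9999 (127 probes on at least 1 array). Of 36227 probes, 21615 had 1 gene symbol in the platform annotation, 681 several and 13931 none listed; 21487 of the first had an Entrez identifier in the RefSeq table of GRCm38.p6, which gave current symbols. Members were matched by that identifier, since an old synonym joins Aldh1a2 to Aldh1a1. Each array was divided by its median, raised to the higher of both arrays' 40th percentiles and put on the log2 scale. Probes below this floor on both arrays were not compared, and with 1 array below it the ratio is a bound. A gene took its brightest compared probe. The rule of size was 2-fold. The steps were tested on simulated data in which brighter genes were given known changes beyond 2-fold. Smaller changes and changes of genes near the floor were not covered. Named genes were all members, the wider-list genes past 2-fold or sharing a member's role, and the highest and lowest 3. Genes outside this rule were chosen after their values were seen. They include marker genes, the DR5 genes and further genes of the wider lists, such as Ncoa3, Rbp3, Dgat1 and Stra8. The members and lists were chosen with earlier results of these data known. Alternatives covered scaling, floor, probe rule and size rule. With 1 array per group there is no replicate, and precision is limited by the number of arrays. Python 3.11.15, numpy 2.4.6 and pandas 2.3.3 were used.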

Additional observations from a re-analysis of the deposited data

How the results depend on the processing

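No paired analysis was possible because each group had 1 array, and for the same reason no array could be left out. The count of members 2-fold apart was 0 under all alternatives but 1: with no floor it was 1 (Rarg). The count among the other pathway genes was 2 with the floor at the 25th percentile, 0 with it at the 60th and 3 with no floor, against 1. It was 5 of 29 at 1.5-fold and 0 at 3-fold. Among the responsive genes of both kinds it was 3 at the 25th percentile floor and with no floor and 1 at the 60th percentile floor, against 2. It was 7 of 21 at 1.5-fold and 0 at 3-fold. Of all compared genes, 8.43% were 1.5-fold apart. The neural tube list had a median of -0.13 at the 25th percentile floor and with no floor, against -0.26. Among the DR5 genes, a list added after seeing the data, it was 2 at the 25th percentile floor, 3 with no floor and 2 at 1.5-fold, against 1. Over all genes the counts were 533 higher and 522 lower at the 25th percentile floor, 38 and 28 at the 60th and 1200 and 1130 with no floor, against 111 and 122. The median log2 ratio of all compared genes stayed between -0.01 and 0.02. Signal below the floor limits Rarg, the second Rarb probe and 9 genes of the wider pathway.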

Other observations

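Some retinoid genes known from other tissues gave signal in these pools, and others did not. Rpe65, Rbp2, Adh7, Dhrs9 and both probes of Lrat were below the floor on both arrays. Of all 18069 genes with a probe of their own, 13136 were above the floor on at least 1 array, so signal does not set these genes apart. Rdh12, known as a photoreceptor enzyme, read 17.0 on both arrays, and Rbp3, the retinoid carrier of the retina, read 2.48 in the wild-type pool and 2.57 in that of mDom-/- embryos. Bco2, a carotenoid-cleaving enzyme gene, read 5.69 and 5.49. Dgat1, which can store retinol as an ester, read 7.74 and 9.05, a log2 ratio of 0.23. Each rested on 1 probe, and whether each probe measures that transcript was not tested. Stra8, a retinoic acid target of germ cells, read 0.327 and 0.768, a bound of 0.51 on the log2 scale, and 1.23 with the floor at the 25th percentile.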
